A study of Danio rerio with 36 samples.

Results

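A set of 10 zebrafish genes was followed through the adult vascular translatome of this series: 9 genes used as markers of leukocytes, ptprc, lcp1, coro1a, mpeg1.1, csf1ra, spi1b, mpx, lyz and cd74a, together with srgn, which encodes the granule proteoglycan serglycin. They were taken from a fixed list of names and matched by symbol, ignoring case, to the Ensembl identifiers of the count table. Of the 10 names, 7 matched the reference gene names, 2 (spi1b and mpx) were matched through symbol and identifier pairs in the study's tables, and mpeg1.1 could not be given an identifier, so that 9 of the 32520 genes in the table are described here. The identifiers are ENSDARG00000071437 for ptprc, ENSDARG00000023188 for lcp1, ENSDARG00000054610 for coro1a, ENSDARG00000102986 for csf1ra, ENSDARG00000000767 for spi1b, ENSDARG00000019521 for mpx, ENSDARG00000057789 for lyz, ENSDARG00000009087 for cd74a and ENSDARG00000077069 for srgn.

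Translating ribosome affinity purification (TRAP) isolates messenger RNA bound to a tagged ribosomal protein from a tissue lysate, and the lysate itself is kept as the input. All fish in this report were adults of the Tg(kdrl:egfp-2a-rpl10a3xHA)y530 line, in which the promoter of the endothelial receptor gene kdrl drives EGFP and an HA-tagged Rpl10a; no group lacked the transgene. Input and anti-HA pulldown were sequenced from the skin, the muscle and the whole fish in 3 replicates each, which gives 18 libraries, and each replicate pooled the material of 4 fish. The question put to these genes is what level they had in the inputs, and how their level in the endothelial pulldown compared with it.

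Leukocytes share a set of proteins that are scarce elsewhere. Ptprc (CD45) is a receptor tyrosine phosphatase of leukocytes, Lcp1 (L-plastin) bundles actin and Coro1a binds actin at the cell cortex. Spi1b (Pu.1) is the transcription factor that directs myeloid fate, Csf1ra is the receptor for colony stimulating factor 1 on macrophages and, in fish, on pigment cells of the skin, and Mpeg1 is a pore-forming protein of macrophages. Mpx (myeloperoxidase) and Lyz (lysozyme) fill the granules and lysosomes of neutrophils and macrophages, and Cd74a is an invariant chain, the chaperone of class II antigen presentation. Serglycin packages proteases and other charged cargo in the granules of mast cells, neutrophils and platelets, and in mammals it is also made by endothelial cells.

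The libraries held between 9202302 and 26255588 counts. In the whole fish pulldown, 1 gene took 53.8 to 76.2% of the counts, and the spread between replicates (biological coefficient of variation) was 0.849 in the whole fish against 0.273 in the skin and 0.327 in the muscle. The endothelial list was high in every pulldown. In the skin 22 of the 26 endothelial genes tested were enriched, in the muscle 22 of 26 and in the whole fish 18 of 25. The shares of all genes enriched were 21.5%, 22.8% and 11.3% in the same order. The columns used for skin replicate 2 carry another letter than the other skin columns and were given to the skin because no other columns were left for it, so results that need them are also given without them. Levels are CPM, the counts of a gene scaled to a common library total, after TMM scaling within the 6 libraries of a tissue, unless a comparison between tissues is named. CPM is not divided by gene length, so levels are compared between libraries and not between genes.

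In the skin, 1 of the 9 genes was enriched in the pulldown, csf1ra, against 21.5% of the 17153 genes tested, and 4 were depleted, lcp1, coro1a, lyz and cd74a, against 18.2% of all genes; the other 4 were not called. In the muscle, srgn was the 1 gene enriched, where 22.8% of 14849 genes were enriched, and coro1a, spi1b, mpx and lyz were the 4 depleted, where 21% of all genes were. In the whole fish, csf1ra was too low to be tested, srgn was the 1 of 8 enriched (11.3% of 16923 genes) and coro1a, mpx and cd74a were the 3 depleted (15.5% of all genes). A call required a Benjamini-Hochberg adjusted p under 0.05 in edgeR's one-sided quasi-likelihood test together with a size of 1.2 or more on the log2 scale. The share of the 9 genes that was enriched lay at or under the background in the skin and the muscle, and the share that was depleted lay above it in all 3 tissues. The whole fish share is the least firm, since its 3 depleted genes became 1 with the replicate block and 0 to 5 when a library was left out. Leaving out a library also moved the depleted count of all genes there, between 1548 and 4725. By library size alone, which shifts the median of all genes to 0.87 in the skin and 1.79 in the muscle, 2 of the 4 depleted calls remained in the skin (coro1a and cd74a) and 1 in the muscle (coro1a). In a joint fit of the 18 libraries, csf1ra, lcp1 and lyz lost their skin calls (adjusted p 0.211, 0.146 and 0.0674, edgeR). The pulldown and input of a replicate come from the same lysate, so a depleted call is no measure of how many cells a tissue held. Between the inputs of tissues, fewer cells of a type and less RNA per cell cannot be told apart.

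**Figure D1:**
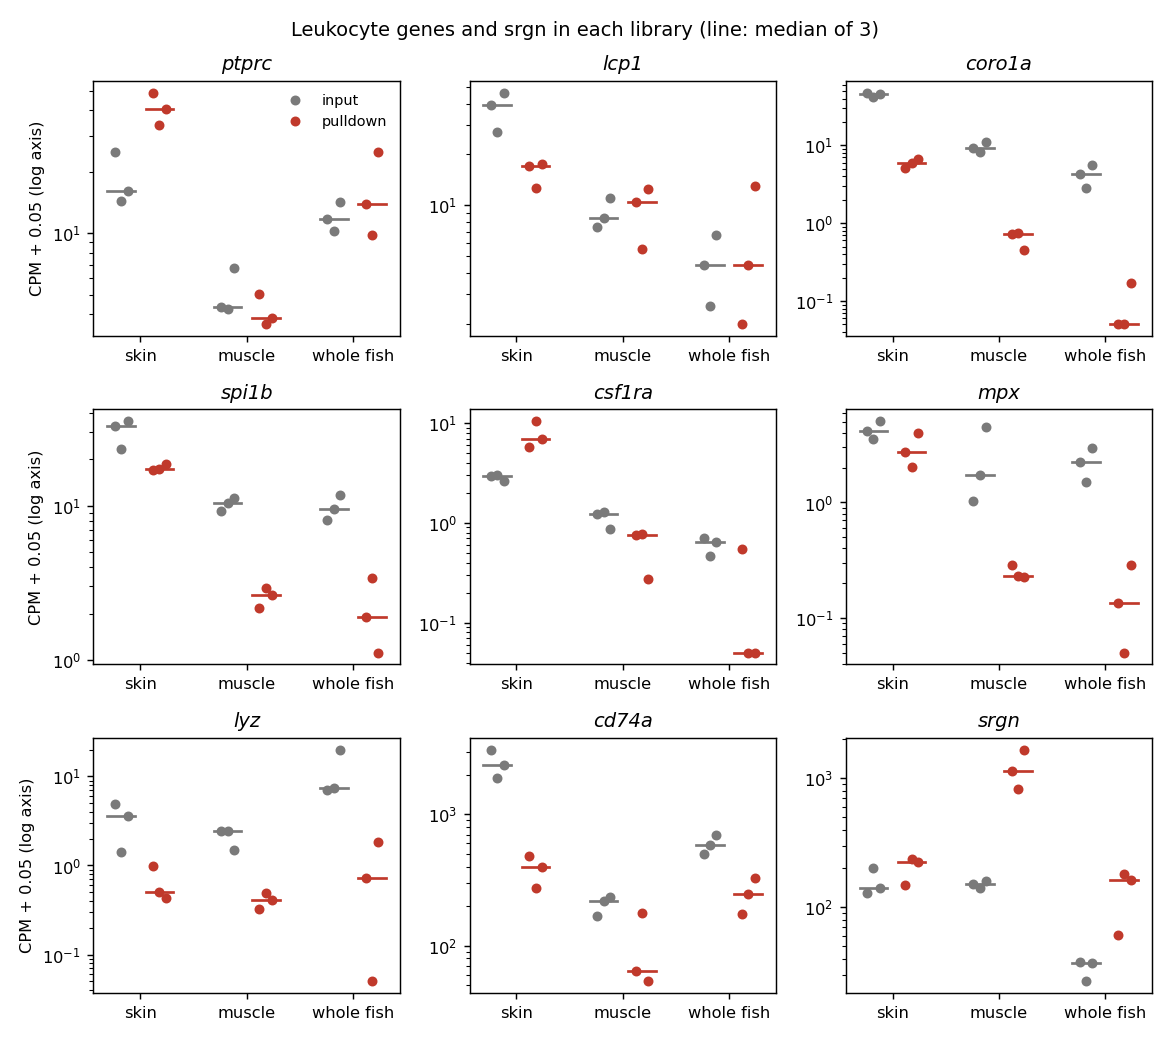
Level in CPM (with 0.05 added, log axis) of each gene in the 18 libraries, grouped by tissue; grey points are inputs, red points are pulldowns and each line is the median of 3 libraries. The coro1a pulldowns lie below the inputs in all 3 tissues, whereas the srgn pulldowns of the muscle (827 to 1667 CPM) lie above the muscle inputs (141 to 160 CPM).

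Among the genes shared by all leukocytes, coro1a was the one depleted in every tissue. In the skin its level was 47.6, 42.3 and 45.4 CPM in the 3 inputs and 5.06, 5.96 and 6.53 CPM in the 3 pulldowns. In the muscle the inputs held 9.09, 8.24 and 10.9 CPM and the pulldowns 0.67, 0.69 and 0.40 CPM. The inputs and pulldowns did not overlap in either tissue, and the log2 fold change of pulldown over input was -2.94 (SE 0.20, adjusted p 1.1e-05, n = 3 per group, edgeR) in the skin and -3.98 (SE 0.33, adjusted p 1.62e-05, edgeR) in the muscle. In the whole fish the inputs held 4.28, 2.79 and 5.49 CPM, whereas the pulldowns of replicates 1 and 2 had no count and replicate 3 had 0.12 CPM. With 2 counts in the pulldowns against 289 in the inputs, the input was 81.2-fold higher, with an exact 95% interval of 22.3 to 673 that covers counting error only. The adjusted p of 0.0129 (edgeR) rose to 0.0532 with the replicate number as a block and to 0.056 without whole fish input replicate 3, so the whole fish call is the least firm of the 3.

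The phosphatase gene ptprc did not follow coro1a. Its skin inputs held 25.0, 14.3 and 16.0 CPM and its skin pulldowns 48.8, 33.7 and 40.6 CPM. Every skin pulldown lay above every skin input, and the log2 fold change was 1.16 (SE 0.25, adjusted p 0.00223, edgeR), which fell just short of the fold required for a call; by library size alone it was 2.01 and was called. The muscle inputs held 4.29, 4.18 and 6.73 CPM and the muscle pulldowns 4.96, 3.52 and 3.79 CPM. These groups overlapped, with a log2 fold change of -0.31 (SE 0.31, adjusted p 0.436, edgeR). The whole fish groups overlapped as well, with inputs of 11.7, 10.2 and 14.1 CPM and pulldowns of 13.9, 9.76 and 24.9 CPM, a log2 fold change of 0.43 (SE 0.52, adjusted p 0.618, edgeR). The muscle value changes sign with the scaling: by library size alone, which shifts the median of all genes there to 1.79, ptprc stood at 1.46, still under that median.

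The actin bundling gene lcp1 was depleted in the skin and not called elsewhere. Its skin inputs held 39.0, 27.3 and 46.4 CPM and its skin pulldowns 17.1, 12.7 and 17.5 CPM, without overlap. The log2 fold change was -1.25 (SE 0.24, adjusted p 0.00118, edgeR), close to the fold threshold, and it was -1.10 without skin input replicate 3 and -1.12 without skin pulldown replicate 2. In the muscle and the whole fish the inputs (7.40 to 11.02 and 2.49 to 6.63 CPM) overlapped the pulldowns (5.44 to 12.4 and 1.93 to 12.9 CPM). The log2 fold changes there were 0.08 (adjusted p 0.823, edgeR) and 0.51 (SE 0.88, adjusted p 0.741, edgeR).

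The ratio of ptprc to coro1a counts within a library does not depend on any scaling between libraries. In the skin it was 0.337 to 0.525 in the inputs and 5.66 to 9.64 in the pulldowns. In the muscle it was 0.471 to 0.615 in the inputs and 5.11 to 9.44 in the pulldowns. The ranges of input and pulldown were far apart in both tissues and close to each other between the tissues, so that 2 genes used as markers of the same cells differed widely in how much of each the pulldown held. The whole fish inputs stood at 2.57 to 3.66, above those of both organs. For ptprc against lcp1 the skin inputs gave 0.344 to 0.641 and the skin pulldowns 2.32 to 2.86, while the muscle inputs (0.5 to 0.610) and pulldowns (0.306 to 0.647) overlapped. These ratios are given as values without a test, and since length is not divided out only their change between libraries can be read.

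**Figure D2:**
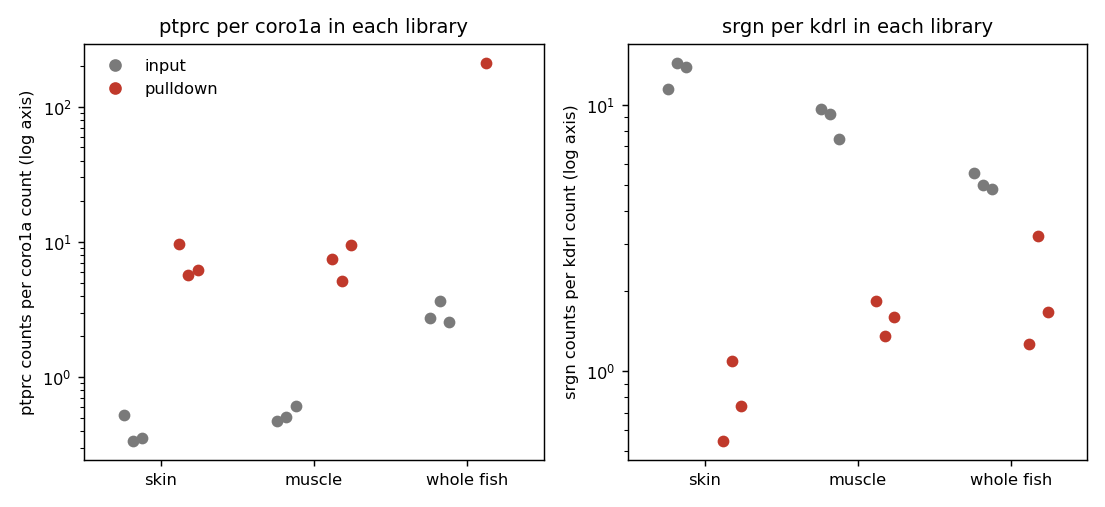
Counts of ptprc per coro1a count (left) and of srgn per kdrl count (right) in each library, on log axes; grey points are inputs and red points are pulldowns of the 3 tissues. The ptprc ratio lay between 5.11 and 9.64 in the skin and muscle pulldowns and under 0.615 or at it in their inputs; 2 whole fish pulldowns had no coro1a count and are not drawn.

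Among the myeloid genes, spi1b had a negative log2 fold change in all 3 tissues and was called by edgeR in the muscle. Its muscle inputs held 9.22, 10.4 and 11.3 CPM and its muscle pulldowns 2.13, 2.87 and 2.58 CPM. The muscle groups were well apart, with a log2 fold change of -2.02 (SE 0.26, adjusted p 0.000116, edgeR). In the skin, inputs of 33.1, 23.3 and 35.3 CPM stood against pulldowns of 16.9, 17.3 and 18.5 CPM. The skin groups did not overlap either, but the log2 fold change of -0.80 (SE 0.21, adjusted p 0.00726, edgeR) was under the fold required. For the whole fish, inputs of 8.02, 9.46 and 11.8 CPM and pulldowns of 1.84, 3.38 and 1.06 CPM gave a log2 fold change of -2.22 (SE 0.71, adjusted p 0.0515, edgeR), with no overlap; DESeq2 called it (-2.40, adjusted p 0.000558), as did a joint edgeR fit of the 18 libraries (-2.64, adjusted p 3.24e-05).

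The receptor gene csf1ra stood apart from spi1b in the skin. Its skin inputs held 2.90, 2.97 and 2.61 CPM and its skin pulldowns 5.66, 10.4 and 6.84 CPM. All 3 pulldowns were above all 3 inputs, with a log2 fold change of 1.43 (SE 0.32, adjusted p 0.00265, edgeR). Skin replicate 2 held the highest pulldown, and with skin replicates 1 and 3 only the log2 fold change was 1.17 (adjusted p 0.0294, edgeR), under the fold required for a call. In the muscle the inputs held 1.17, 1.24 and 0.81 CPM and the pulldowns 0.71, 0.73 and 0.22 CPM. The muscle log2 fold change of -0.94 (SE 0.57, adjusted p 0.203, edgeR) did not pass the test although the groups did not overlap. In total csf1ra had 39 counts in the whole fish inputs and 6 in the pulldowns, all of the 6 in replicate 1, and it did not pass the filter on low counts. Its paralog csf1rb was the 1 gene of the macrophage list enriched in the skin pulldown, beside 21.5% of all genes. Of the 21 tested genes of that list, 12 were depleted, beside 18.2% of all genes. The csf1rb log2 fold change was 1.76 in the skin (SE 0.46, adjusted p 0.00679, edgeR). It was not called in the muscle (0.31, adjusted p 0.637, edgeR), and csf1rb was picked out after its values were seen.

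The reference name MPEG1 was carried by 3 identifiers, of which 1 is mpeg1.2 by the study's tables; which of the other two is mpeg1.1 could not be settled, so neither is counted among the 9 genes. One of them, ENSDARG00000055290, held 43.1, 29.6 and 42.0 CPM in the skin inputs and 15.5, 8.07 and 17.6 CPM in the skin pulldowns. It was depleted in the skin (log2 fold change -1.48, SE 0.29, adjusted p 0.0013, edgeR) and in the muscle (-2.28, SE 0.38, adjusted p 0.000611, edgeR), and not called in the whole fish (-0.82, SE 0.83, adjusted p 0.486, edgeR). The other, ENSDARG00000078569, had next to no counts in any group. The related mpeg1.2 was depleted in the skin (-2.13, SE 0.21, adjusted p 2.95e-05, edgeR) and in the whole fish (-5.18, SE 1.11, adjusted p 0.0135, edgeR), and its muscle libraries were too low to be tested.

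Of the granule genes, mpx was depleted in the muscle and the whole fish and lyz in the skin and the muscle. The neutrophil peroxidase gene mpx held 4.10, 3.46 and 5.01 CPM in the skin inputs and 2.66, 1.96 and 3.92 CPM in the skin pulldowns. These overlapped, with a log2 fold change of -0.56 (SE 0.36, adjusted p 0.207, edgeR). In the muscle, inputs of 0.97, 1.69 and 4.46 CPM stood against pulldowns of 0.24, 0.18 and 0.18 CPM, a log2 fold change of -3.53 (SE 0.67, adjusted p 0.00148, edgeR) without overlap. The whole fish inputs held 1.45 to 2.92 CPM against 0 to 0.24 CPM in the pulldowns, where 5 counts were found in all. The whole fish log2 fold change of -4.19 (SE 1.13) had an adjusted p of 0.0298 (edgeR), which was 0.087 with the replicate block and between 0.086 and 0.10 without any 1 of the 3 inputs.

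For lyz, the lysozyme gene, the skin inputs held 4.80, 1.38 and 3.54 CPM and the pulldowns 0.94, 0.45 and 0.38 CPM, and the muscle inputs held 2.40, 2.37 and 1.46 CPM against 0.28, 0.44 and 0.36 CPM. Neither pair of groups overlapped, and the log2 fold changes were -2.43 (SE 0.58, adjusted p 0.00421, edgeR) and -2.52 (SE 0.49, adjusted p 0.00171, edgeR). In the whole fish, inputs of 6.92, 7.35 and 19.997 CPM and pulldowns of 0.67, 0 and 1.77 CPM gave -3.78 (SE 1.36, adjusted p 0.0746, edgeR), which was not called by edgeR and was called by DESeq2 (-4.02, adjusted p 0.00255).

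The invariant chain gene cd74a was depleted in the skin and the whole fish. Its skin inputs held 3113, 1902 and 2371 CPM and its skin pulldowns 484, 275 and 394 CPM. The groups were far apart, with a log2 fold change of -2.68 (SE 0.33, adjusted p 8.35e-05, edgeR). The whole fish inputs held 497, 589 and 695 CPM and the pulldowns 173, 245 and 327 CPM, a log2 fold change of -1.26 (SE 0.31, adjusted p 0.0214, edgeR), also without overlap; without whole fish pulldown replicate 1 it was -1.06, and the adjusted p was 0.061 and 0.077 without whole fish input replicate 2 and replicate 3. In the muscle, inputs of 169, 221 and 233 CPM and pulldowns of 63.6, 177 and 53.5 CPM overlapped through replicate 2. The muscle log2 fold change of -1.08 (SE 0.43, adjusted p 0.0585, edgeR) was not called, and it was called without muscle pulldown replicate 2 (-1.79, adjusted p 0.0011, edgeR) and ranged from -1.79 to -0.77 when a library was left out. Replicate numbers pair a pulldown with the input of its own lysate here, and with the number as a block the value was -1.29 (adjusted p 2.02e-05, edgeR), past both thresholds; all 3 muscle pulldowns lay under their own inputs.

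**Figure D3:**
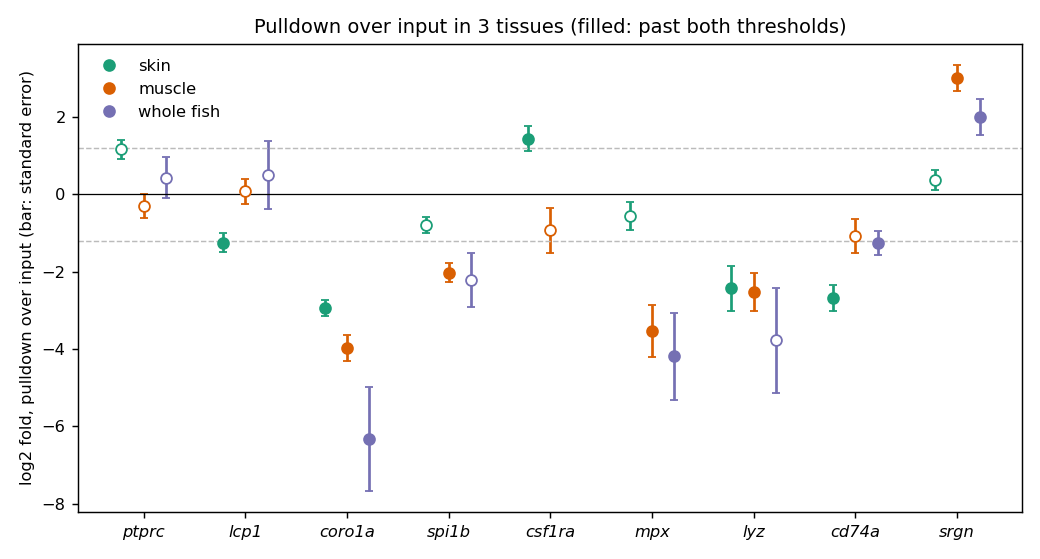
Log2 fold change of pulldown over input for each gene in skin, muscle and whole fish; bars are standard errors, filled points passed both thresholds, and dashed lines mark log2 folds of 1.2 and -1.2. The coro1a points are the lowest in each tissue (-2.94, -3.98 and -6.33), and srgn stands at 0.36 in the skin, 1.99 in the whole fish and 3.00 in the muscle.

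In the muscle, srgn was the 1 gene of the 9 that was enriched. Its muscle inputs held 152, 141 and 160 CPM and its pulldowns 1127, 827 and 1667 CPM. The lowest pulldown was several times the highest input, and the log2 fold change was 3.00 (SE 0.33, adjusted p 3.98e-05, edgeR). Leaving out any 1 of the 6 libraries moved it between 2.68 and 3.26 and never ended the call. In the whole fish the inputs held 37.7, 26.6 and 37.0 CPM and the pulldowns 60.4, 181 and 162 CPM, with a log2 fold change of 1.99 (SE 0.46, adjusted p 0.0207, edgeR). These groups did not overlap, but the whole fish call was lost in 5 of the 6 fits that left out a library, with values of 1.65 to 2.03, and by library size alone, at 1.02 (adjusted p 0.407, edgeR). In the skin, inputs of 129, 202 and 141 CPM overlapped pulldowns of 149, 235 and 223 CPM. The skin log2 fold change was 0.36 (SE 0.26, adjusted p 0.243, edgeR), although each skin pulldown lay above its own input.

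Set against an endothelial transcript in the same library, srgn was high in the inputs and lower in the pulldowns. There were 11.5 to 14.4 srgn counts per kdrl count in the skin inputs and 0.547 to 1.096 in the skin pulldowns. The muscle inputs gave 7.46 to 9.64 and the muscle pulldowns 1.36 to 1.83, and the whole fish inputs gave 4.82 to 5.57 against 1.27 to 3.23 in the pulldowns. Input and pulldown were thus apart in every tissue, and srgn gained less in the pulldown than kdrl did, also in the muscle. With the junction gene cdh5 in place of kdrl, the muscle ratio went from 7.16 to 11.8 in the inputs to 0.836 to 1.02 in the pulldowns. Set against ptprc, the order was the other way in the muscle, from 23.7 to 35.3 srgn counts per ptprc count in the inputs to 227 to 440 in the pulldowns, whereas in the skin the inputs (5.17 to 14.2) and pulldowns (3.04 to 6.97) overlapped.

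Serglycin is also a product of granule-bearing blood cells, and the lists of such cells were read beside srgn. In the muscle pulldown, 21% of all genes were depleted and 22.8% enriched. There, the mast cell and eosinophil list had both of its 2 tested genes depleted. Of these, cpa5, a carboxypeptidase of mast cells, stood at -2.34 (SE 0.57, adjusted p 0.00651, edgeR). The thrombocyte list had 3 of 7 depleted and 1 enriched, thbs1b (log2 fold change 1.76, SE 0.64, adjusted p 0.0358, edgeR), and its summed level was 36.4 to 75.0 CPM in the muscle inputs and 15.0 to 40.2 CPM in the muscle pulldowns. The neutrophil list had 2 of 5 enriched, csf3r and scpp8, and 1 depleted, with a median of 1.28. Its summed level was 66.0 to 89.9 CPM in the muscle inputs and 64.1 to 78.3 CPM in the muscle pulldowns, which overlapped. By mean count over the 18 libraries, nccrp1 (2103) led that list, far ahead of scpp8 (75.2), so the sum can follow 1 gene. The members mpx (-3.53) and lyz (-2.52), which are not in that list, were depleted in the muscle. The scpp8 value, 1.70 (SE 0.58, adjusted p 0.0275, edgeR), went the other way in the skin (-1.86, SE 0.26, adjusted p 0.000181, edgeR). Of the genes for proteoglycan cores, chain synthesis and sulfation, 2 of 12 were enriched in the muscle pulldown, a share under the 22.8% of all genes, the heparan sulfate polymerase gene ext2 (1.55, SE 0.24, adjusted p 0.000333, edgeR) and the chondroitin sulfotransferase gene chst11 (1.24, SE 0.26, adjusted p 0.00219, edgeR), beside a median of 0.41 for the list and 0.07 for all genes. The part of any of these cells in the srgn level was not tested.

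The leukocyte lists were also pooled with the members other than srgn, so the pool is no separate check on those members. Of its 98 genes, 79 were tested in the skin, where 35 were depleted and 8 enriched. Among all genes there, 18.2% were depleted and 21.5% enriched. The median log2 fold change of the pool was -1.17 beside 0.04 for all genes. In the muscle 33 of 60 were depleted (21% of all genes) and 5 enriched (22.8% of all genes), with a median of -1.51 (all genes 0.07). In the whole fish 21 of 73 were depleted (15.5% of all genes), with a median of -1.95 (all genes -0.09). None was enriched there by edgeR (11.3% of all genes were), by DESeq2 or at an unadjusted p under 0.05. The summed level of these 98 genes was 5936 to 7984 CPM in the skin inputs and 1507 to 2034 CPM in the skin pulldowns. In the muscle the inputs (703 to 850 CPM) and the pulldowns (457 to 787 CPM) overlapped. In the whole fish they stood at 1699 to 2623 and 627 to 1149 CPM. Of the 98 genes, 23 had no count in any whole fish pulldown, against 2 in the whole fish inputs. Any of those 23 that were tested passed the filter on low counts through the inputs, so the whole fish median of -1.95 can follow genes without counts. The member cd74a alone averaged 2462 CPM in the skin inputs and 594 CPM in the whole fish inputs.

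By lineage, the macrophage list had 12 of 21 tested genes depleted and 1 enriched in the skin, and 5 of the 12 are copies of mfap4. In the muscle 11 of 15 were depleted, and in the whole fish 5 of 22. Among all genes, 18.2% were depleted in the skin, 21% in the muscle and 15.5% in the whole fish. The enriched shares of all genes were 21.5% in the skin and 22.8% in the muscle. The complement gene c1qb stood at -2.55 (SE 0.22, adjusted p 1.53e-05, edgeR) in the skin and -3.15 (SE 0.28, adjusted p 2.02e-05, edgeR) in the muscle. Of the pan-leukocyte list, 8 of 16 were depleted in the skin, and 11 of 16 were depleted in the muscle and 2 enriched. The summed level of that list went the other way in the muscle, with 130 to 142 CPM in the inputs and 168 to 239 CPM in the pulldowns. In the skin the inputs held 1018 to 1157 CPM and the pulldowns 376 to 510 CPM, and in the whole fish the groups overlapped. By mean count arhgdig (2412) led the list, so the sum can follow 1 gene. The second invariant chain gene, cd74b, paralleled cd74a in the skin (-3.01, SE 0.27, adjusted p 1.72e-05, edgeR) and was not called in the muscle (0.44, adjusted p 0.356, edgeR). The T and NK cell list had 4 of 14 depleted and 1 enriched in the skin, where 18.2% of all genes were depleted and 21.5% enriched, and 2 of 5 depleted in the muscle, where 21% of all genes were. Its summed level was lower in the pulldowns than in the inputs of skin and muscle, without overlap. In the whole fish it was higher, with 27.7 to 34.7 CPM in the inputs and 37.2 to 111.9 CPM in the pulldowns. By mean count runx3 (673.5) led that list. In the B cell list ighm, the immunoglobulin M heavy chain gene, was depleted in the skin (-1.41, SE 0.39, adjusted p 0.0101, edgeR). By contrast, ebf1b was enriched there (2.28, SE 0.30, adjusted p 0.000112, edgeR) and in the muscle (2.53, SE 0.46, adjusted p 0.000968, edgeR). For the 8 matched genes of that list, the summed skin level was 15.8 to 24.4 CPM in the inputs. In the skin pulldowns it was 13.9 to 21.6 CPM, so the groups overlapped.

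**Figure D4:**
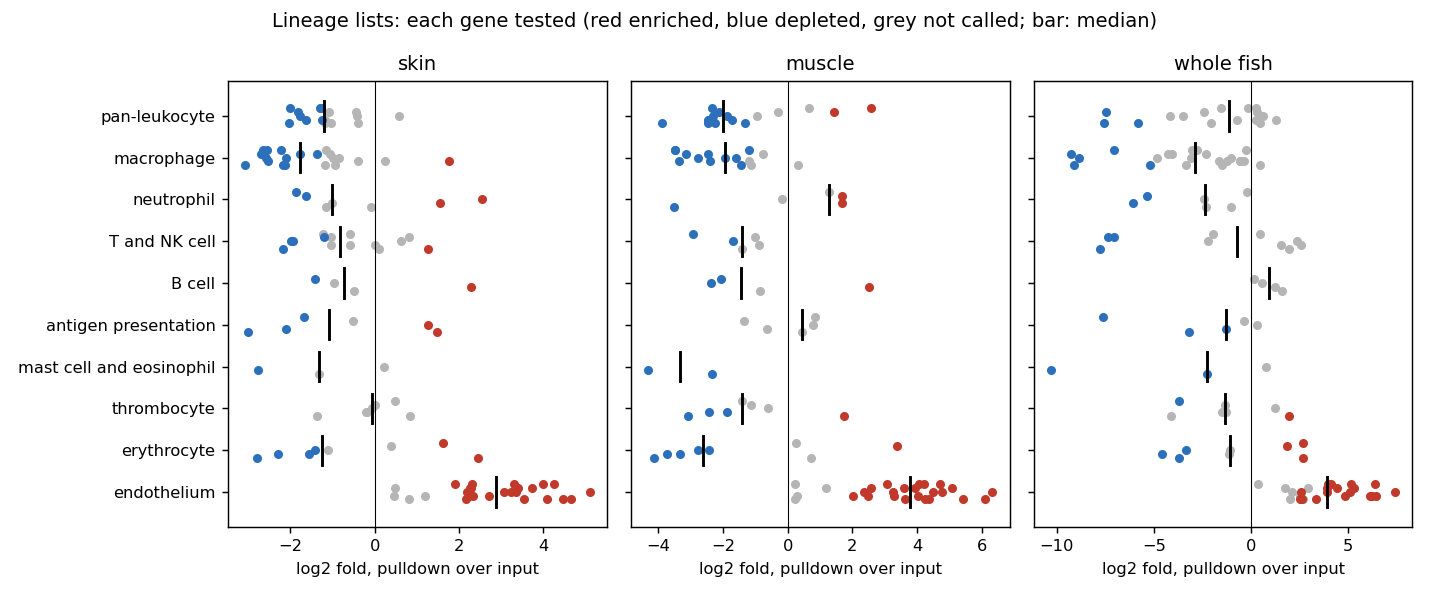
Log2 fold change of pulldown over input for every tested gene of 10 lineage lists in skin, muscle and whole fish; red points were enriched, blue points depleted, grey points not called, and black bars are list medians. The endothelial medians are 2.88, 3.78 and 3.8999, and the macrophage medians are -1.77, -1.94 and -2.90. Of the 26 matched macrophage genes, 7 had no count in any whole fish pulldown, so that median can follow genes without counts.

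Whether the pulldown over input of a gene differed between 2 tissues was tested as the difference of its log2 fold changes. Skin minus muscle, 5 of the 9 genes were higher (11.4% of 18669 genes were) and 2 were lower (12.4% of all genes). The higher ones were ptprc, by 1.52 on the log2 scale (SE 0.40, adjusted p 0.0122, edgeR), coro1a by 1.09 (SE 0.34, adjusted p 0.0306, edgeR), csf1ra by 2.41 (SE 0.61, adjusted p 0.0106, edgeR), spi1b by 1.27 (SE 0.32, adjusted p 0.00964, edgeR) and mpx by 3.04 (SE 0.76, adjusted p 0.0102, edgeR). The lower ones were srgn, at -2.60 (SE 0.44, adjusted p 0.000865, edgeR), and lcp1, at -1.28 (SE 0.43, adjusted p 0.0423, edgeR). The median of all genes in this comparison was 0.24. By library size alone, where it was -0.68, none of the 5 passed the test while srgn and lcp1 did. Under that scaling cd74a was lower in the skin as well, at -2.54 (adjusted p 0.00173, edgeR). The srgn difference kept its call without any 1 of the 12 libraries, at -2.86 to -2.30. By contrast, coro1a lost it in 9 and lcp1 in 8 of these fits. Without muscle input replicate 3, ptprc, spi1b and mpx lost it too (adjusted p 0.0647, 0.0505 and 0.0556, edgeR), with mpx at 2.05. The spi1b call was also lost without skin input replicate 2 (adjusted p 0.0537, edgeR). With skin replicates 1 and 3 only, 3 genes were higher (ptprc, spi1b and mpx) and 1 lower (srgn), and in a joint fit of all 18 libraries none was higher and srgn alone was lower. For cd74a the difference was -1.54 (SE 0.57, adjusted p 0.0606, edgeR), which was not called; with a block for each lysate, which follows the pairing, it was -1.36 and was called (adjusted p 0.00127, edgeR), as it was by DESeq2 (-1.50, adjusted p 0.0326). For lyz it was 0.14 (SE 0.81, adjusted p 0.923, edgeR).

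Against the whole fish, the skin was higher for coro1a by 3.69 (SE 0.92, adjusted p 0.015, edgeR), for spi1b by 1.84 (SE 0.58, adjusted p 0.0407, edgeR) and for mpx by 3.95 (SE 1.08, adjusted p 0.022, edgeR), 3 of 9 genes where 17.4% of all genes were higher. None of the 9 was lower in edgeR (4.42% of all genes were), where 2 had an unadjusted p under 0.05 and DESeq2 called 2. The median of all genes in this comparison lay toward the skin as well, at 0.76, and at 1.48 with a block for each lysate. With skin replicates 1 and 3 only, none of the 3 genes passed the test. The coro1a and mpx differences rest on whole fish pulldowns with 2 and 5 counts in all, so their sizes are imprecise. The spi1b call was also lost with a block for each lysate (1.95, adjusted p 0.0833, edgeR), with the replicate number as a block (adjusted p 0.0739, edgeR) and in 9 of the 12 fits that left out a library, and the mpx call in 6 of those 12. Between muscle and whole fish none of the 9 differed in either direction in edgeR or in DESeq2, and 1 had an unadjusted p under 0.05 in edgeR, beside 12.4% of all genes higher in the muscle and 5.26% lower. For srgn that difference was 1.13 (SE 0.58, adjusted p 0.197, edgeR), so its larger enrichment in the muscle than in the whole fish did not pass a test.

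The inputs show the level of each transcript relative to the other genes of a library, on a scale set over the 9 inputs together. For skin over muscle, cd74a was higher, the 1 of 9 genes so called where 18.4% of 18473 genes were. Its levels were 909 to 1467 CPM in the skin and 174 to 239 CPM in the muscle, a log2 fold change of 2.47 (SE 0.29, adjusted p 2.82e-05, edgeR, two-sided). Another 3 stood under the fold required with an adjusted p under 0.05, coro1a at 1.16 (adjusted p 0.00165), lcp1 at 0.98 (adjusted p 0.0261) and ptprc at 0.75 (adjusted p 0.0367), all by edgeR. None was called lower in the skin by edgeR (1 at an unadjusted p under 0.05) or by DESeq2, where 19.4% of all genes were lower; srgn, at -1.03 (SE 0.24, adjusted p 0.00384, edgeR), came closest, and with skin replicates 1 and 3 only it was -1.24 and was called.

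Against the whole fish input, the skin input was higher in lcp1 (1.76, SE 0.33, adjusted p 0.00125, edgeR) and coro1a (2.12, SE 0.24, adjusted p 4.53e-05, edgeR), 2 of 9 beside 13.2% of all genes. It was lower in lyz (-3.14, SE 0.49, adjusted p 0.000381, edgeR), 1 of 9 beside 18.9% of all genes. The muscle input was higher than the whole fish input in srgn alone among the 9 (17.1% of all genes), with 142 to 163 CPM in the muscle and 31.1 to 45.6 CPM in the whole fish. Its log2 fold change was 1.94 (SE 0.25, adjusted p 6.25e-05, edgeR), and 0.82 by library size alone, where the median of all genes moved to -1.25. The muscle input was lower in ptprc (-1.46, SE 0.27, adjusted p 0.000838, edgeR), lyz (-2.66, SE 0.51, adjusted p 0.000891, edgeR) and cd74a (-1.73, SE 0.28, adjusted p 0.00033, edgeR), 3 of 9 where 24.6% of all genes were lower.

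Between the pulldowns, scaled over the 9 pulldown libraries together, the order for srgn was muscle first. Its muscle pulldowns held 1237 to 2518 CPM on this scale, its whole fish pulldowns 92.0 to 257 CPM and its skin pulldowns 113 to 178 CPM. The muscle did not overlap the others, and the skin and the whole fish did overlap (log2 fold change -0.37, SE 0.43, adjusted p 0.531, edgeR; 1.48 by library size alone, where the median of all genes was 2.23). Skin over muscle was -3.53 (SE 0.47, adjusted p 0.00263, edgeR), the 1 of 9 genes lower where 3.36% of 18544 genes were, and muscle over whole fish was 3.16 (SE 0.46, adjusted p 0.00118, edgeR). A higher level in the muscle was not particular to srgn. On this scale cdh5 held 1480.5 to 2767 CPM in the muscle pulldowns and 171 to 261 CPM in the skin pulldowns. For kdrl these were 904 to 1569 and 160 to 239 CPM. Per cdh5 count, srgn stood at 0.836 to 1.02 in the muscle and 0.578 to 1.03 in the skin pulldowns, which overlapped. Per kdrl count, the muscle pulldowns (1.36 to 1.83) lay above the skin pulldowns (0.547 to 1.096).

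For ptprc the order of the pulldowns was skin, whole fish, muscle, with 25.2 to 37.2, 13.8 to 39.6 and 5.27 to 7.28 CPM. The skin and the whole fish overlapped, and both lay above the muscle. Skin over muscle was 2.37 (SE 0.51, adjusted p 0.0178, edgeR), the 1 of 9 genes higher by edgeR where 7.39% of all genes were; DESeq2 called 5, adding coro1a, csf1ra, spi1b and mpx. Without any 1 skin or muscle pulldown the adjusted p for ptprc lay between 0.06 and 0.089 (edgeR). Muscle over whole fish was -2.03 for ptprc (SE 0.51, adjusted p 0.0121, edgeR) and -1.36 for cd74a (SE 0.49, adjusted p 0.04998, edgeR), 2 of 9 lower beside 15.2% of all genes, and coro1a (3.47, SE 1.11, adjusted p 0.034, edgeR) and srgn were the 2 higher beside 19.8%. With the replicate block, 1 gene was higher and 1 lower in this comparison, srgn and ptprc. Leaving out 1 library at a time ended the coro1a call in 6 of 9 fits, the cd74a call in 7 and the ptprc call in 2. The coro1a value rests on 2 counts in the whole fish pulldowns. By library size alone, where the median of all genes was 1.47, neither ptprc (-0.81) nor cd74a (-0.06) was called.

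The skin pulldown exceeded the whole fish pulldown in coro1a (5.82, SE 1.16, adjusted p 0.00475, edgeR), csf1ra (4.52, SE 1.38, adjusted p 0.0279, edgeR), spi1b (2.13, SE 0.64, adjusted p 0.026, edgeR) and mpx (3.57, SE 1.00, adjusted p 0.0195, edgeR). These are 4 of 9 genes where 21.7% of all genes were higher, and none was lower by edgeR or DESeq2 or at an unadjusted p under 0.05, where 12.4% of all genes were. The coro1a, csf1ra and mpx values rest on whole fish pulldowns with 2, 6 and 5 counts, so their fitted folds depend on the prior count. These genes passed the filter on low counts through their skin pulldowns, where they were higher. The count of 4 of 9 is therefore no result about the genes as a set. With skin replicates 1 and 3 only, 2 of the 4 passed, coro1a and mpx. The median of all genes for skin over whole fish pulldowns was 0.42.

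Across the 18 libraries, the genes most like srgn by Pearson correlation of log2 CPM among 15470 genes were those named CLIC4 (0.95), ZFP36L2 (0.93) and HEY2 (0.91) in the reference, an intracellular chloride channel gene, a gene for a factor of messenger RNA decay and a Notch target. Those most like ptprc were lamb2l (0.93), a laminin chain gene, DAAM1 (0.92) and FMNL1 (0.92), both formin genes. No member was among the 3 most like either. Among the members, coro1a correlated with spi1b at 0.91 and with mpx at 0.90, and with ptprc at -0.06, and srgn correlated with cd74a at -0.77. The points share tissues, lysates and depth, so these are descriptions over 18 libraries.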

How the data were processed

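Raw counts of reads per gene, deposited by the authors as whole numbers with no normalization, were used. Per the labels and the study's methods, SMART-seq V4 libraries without strand information were sequenced, reads were trimmed with cutadapt and aligned to GRCz11 with hisat2 under Ensembl annotation; the counting program is not given in the sources used here. Without strand, antisense partners cannot be told apart, and close copies (cd74a and cd74b, the MPEG1 genes) may share reads. Organs were fresh or flash frozen, and whole fish were frozen and ground. Of 36 columns, 18 were used; the other 18, of liver, heart and brain, do not name their organ and are not analysed here. Genes without a count in the used columns numbered 3526.

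Pulldown and input were fitted per tissue with edgeR 4.0.16 in R 4.3.3 (filterByExpr, TMM, quasi-likelihood test), one-sided in each direction with Benjamini-Hochberg adjustment over all genes tested; a call needed an adjusted p under 0.05 with a log2 fold of 1.2 or more in size. The 9 inputs, and the 9 pulldowns, were compared in 1 fit each, two-sided with the same thresholds. Differences of pulldown over input between 2 tissues were tested as an interaction in their 12 libraries, two-sided, at an adjusted p under 0.05; the pairs with the whole fish were added after the data were seen. Standard errors are the log2 fold divided by the root of F. Per-library ratios of 2 genes used unscaled counts. The exact 95% interval is Clopper-Pearson.

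Alternatives were DESeq2 1.42.0, library size alone, no filter on low counts, the replicate number as a block, a joint fit, leaving out each library and, added later, a block for each lysate and skin replicates 1 and 3 only. The replicate numbers pair libraries: after subtracting group means, the 9 pairs of pulldown and input that share a number had correlations of 0.17 to 0.49 over genes, and the 18 that do not had -0.36 to -0.05. Replicates differed by more than counting noise (chi-square per gene 24.6 to 292). The pulldown over input test was checked on simulated skin counts, with a small set of genes changed equally in both directions. That check does not bear on the scaling when many genes shift, or on the wider spread of the whole fish. The text names every member, up to 3 genes of highest mean count per list, and the 3 genes most correlated with srgn and with ptprc (mean of at least 20 counts, prior count 2); csf1rb, csf3r, thbs1b, ext2, chst11 and other genes outside this rule were picked after their values were seen. Of 186 list symbols, 166 matched. The members and lists were chosen with earlier results of these data known.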

Additional observations from a re-analysis of the deposited data

Results flagged for a closer look

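In all, 10 differences of pulldown over input between tissues passed the test of the difference itself (edgeR interaction, adjusted p under 0.05). Between skin and muscle these were, on the log2 scale, ptprc at 1.52, lcp1 at -1.28, coro1a at 1.09, csf1ra at 2.41, spi1b at 1.27, mpx at 3.04 and srgn at -2.60. Between skin and whole fish they were coro1a at 3.69, spi1b at 1.84 and mpx at 3.95. The medians of all genes were 0.24 between skin and muscle and 0.76 between skin and whole fish. Of all genes, 11.4% were higher and 12.4% lower in skin than muscle, and 17.4% were higher in skin than whole fish. Most fits that left out 1 library ended the coro1a and lcp1 calls between skin and muscle, and the spi1b call between skin and whole fish. With skin replicates 1 and 3 only, no difference between skin and whole fish passed. The coro1a and mpx whole fish pulldowns held 2 and 5 counts in all. In 1 joint fit of the 18 libraries, srgn alone of the skin and muscle differences passed the test. For coro1a the pulldowns lay under the inputs in each tissue, and the size of the gap differed; ptprc and lcp1, by contrast, were each past an adjusted p of 0.05 in the skin, in opposite directions, and in neither case in the muscle.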

How the results depend on the processing

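By library size alone, pulldown over input called 2 members enriched and 2 depleted in the skin, 3 and 1 in the muscle and 0 and 5 in the whole fish. Inputs then gave 7 members higher in skin than muscle, 4 higher in skin than whole fish, and 0 higher and 5 lower in muscle than whole fish; pulldowns gave 2 higher in skin than muscle and 0 lower in muscle than whole fish. Differences of enrichment gave 0 higher in skin than muscle, 5 in skin than whole fish and 4 in muscle than whole fish. The cd74a enrichment was then called lower in skin than muscle (-2.54). Under this scaling 3 values changed sign, each still under the median of all genes in its comparison: ptprc in muscle pulldown over input (1.46, median 1.79), mpx in skin over muscle inputs (1.36, median 1.501) and srgn in skin over whole fish pulldowns (1.48, median 2.23). The medians of all genes moved to 0.87, 1.79 and -1.01 for pulldown over input. For the settings of this and the next paragraph, the share of all genes called is not given. Their member counts show only how the calls move with the setting and are no result about the members.

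DESeq2 called 5 members depleted in the whole fish, 5 higher in skin than muscle pulldowns and 2 lower in enrichment in skin than whole fish. With the replicate block, which follows the pairing of lysates, 1 member was depleted in the whole fish, 1 was higher and 1 lower in muscle than whole fish pulldowns, and cd74a in the muscle was called at -1.29. Across tissues this block joins lysates that the labels do not pair; a block for each lysate gave 1 member lower in enrichment in skin than whole fish, called cd74a in skin minus muscle (-1.36) and ended the spi1b call in skin minus whole fish (1.95). One joint fit called 0 enriched and 2 depleted in the skin, 6 depleted in the whole fish, 0 higher and 1 lower in enrichment in skin than muscle and 1 higher in muscle than whole fish. Without the filter, 2 members were higher in skin than muscle inputs, and 1 higher and 1 lower in muscle than whole fish pulldowns. With skin replicates 1 and 3 only, 0 were enriched in the skin, 2 higher and 1 lower in skin than muscle inputs, 0 higher in skin than muscle pulldowns, 2 higher in skin than whole fish pulldowns, 3 higher and 1 lower in enrichment in skin than muscle and 0 higher in skin than whole fish.

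Leaving out 1 library at a time, the members enriched ranged from 1 to 2 in the skin and 0 to 1 in the whole fish; for the members depleted in the whole fish the range was 0 to 5. Of all genes, 3192 to 3712 were enriched in the skin and 792 to 2393 in the whole fish, where 1548 to 4725 were depleted. Inputs of skin over muscle gave 1 to 2 higher and 0 to 1 lower, beside 3213 to 3485 and 3405 to 3678 of all genes. Pulldowns gave 0 to 5 higher in skin than muscle, 1 to 4 in skin than whole fish, and 1 to 3 higher and 0 to 2 lower in muscle than whole fish. In the same order, the counts among all genes ran from 276 to 2516, 2789 to 5622, 2599 to 4895 and 1645 to 3551. Enrichment gave 1 to 5 higher and 1 to 3 lower in skin than muscle, 1 to 4 higher and 0 to 1 lower in skin than whole fish, and 0 to 1 higher in muscle than whole fish. Among all genes, 1126 to 2291 were higher and 1995 to 2350 lower in skin than muscle. For enrichment against the whole fish the counts among all genes are not given. The member counts there show only how the calls move and are no result about the members. The cause of these changes was not tested. In the whole fish pulldown, mpx, csf1ra and coro1a had 0 to 6 counts in a library, so their folds are imprecise.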
